A study of Mus musculus with 4 samples.

Results

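Cyp7b1, Ch25h and Gpr183 form the oxysterol signalling axis, and they were followed as 3 genes of the 30406 listed for all 4 single-cell libraries of mouse popliteal lymphatic vessels (PLVs) and saphenous veins. They were taken by name. Cyp7b1 was in addition selected on its ratio of TNF-Tg over wild-type (WT) levels in cells of the lymphatic muscle cell (LMC) cluster, where it was among the largest increases, so its values in that comparison describe the choice and carry no test.

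Oxysterols are oxidised forms of cholesterol. CH25H, the cholesterol hydroxylase that makes hydroxycholesterol in stromal cells and macrophages, starts the pathway. CYP7B1 adds a further hydroxyl group and so makes the ligand of GPR183 (also called EBI2), and the same enzyme clears hydroxycholesterols. HSD3B7 degrades the ligand. GPR183 is a G protein-coupled receptor that guides B cells, T cells, dendritic cells and innate lymphoid cells along gradients of the ligand. Hydroxycholesterols also hold back the SREBP2 transcription factor, which drives cholesterol synthesis and uptake, and activate the LXR receptors, which drive cholesterol export.

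Replicate libraries tdT1 and tdT2 (tdTomato 1 and 2 in the plots) held cells sorted for tdTomato from Cspg4-Cre;Ai9-tdTomato mice of both sexes, in which the Cspg4 promoter drives the Cre that switches on the reporter. WT and TNF-Tg cells were from mice aged 9 months per the labels, male per the methods, and were sorted on high scatter with no reporter. TNF-Tg mice carry a human tumour necrosis factor transgene and had severe ankle arthritis. Each library pooled vessels of 3 mice on the C57BL/6J background, sorted as live cells, and tdT1 was sorted through another nozzle and run on another sequencer than the rest. TNF-Tg and WT had 1 library each, so condition and library cannot be told apart, no difference between them has a test, and every interval below covers counting error only.

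The libraries held 10837 cells, with 454 to 5488 cells and 2357031 to 68773605 unique molecular identifiers (UMIs) each, and median depths of 4932.5 to 12660 UMIs per cell. Of the tdT1 cells, 34.3% had more than 10% mitochondrial UMIs, against 0.220 to 4.59% in the other libraries. Between 0 and 5 cell barcodes were shared by any pair of libraries. Levels are given as CPM, the share of a gene among all UMIs of the cells of 1 class in 1 library on the usual scale, with exact Poisson 95% intervals.

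Cells were grouped into 23 clusters after integration of all 4 libraries, with the 3 genes and the pathway lists left out of the clustering. Of the clusters, 18 were named from marker genes and 5 stayed unnamed. The stromal classes are called LMC-like and VSMC-like after the marker lists of the study for lymphatic muscle and vascular smooth muscle cells. In LMC-like cells the 10 LMC markers summed to 15553 CPM in WT, while the 8 genes of contractile smooth muscle and pericytes, Acta2 and Myh11 among them, summed to 37.1 CPM in WT against 30.6 in TNF-Tg, with 2 of them at 0 in each. In VSMC-like cells the contractile genes summed to 2.63 CPM in WT, against 13999 CPM for the 10 VSMC markers. The contractile genes that define muscle were therefore nearly absent from both classes, and their names stand only for the marker lists. A related stromal cluster led by Col5a3 stayed unnamed. All 3 had the stromal marker Prrx1 and almost no Ptprc, the gene of the leukocyte antigen CD45.

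According to the GENCODE annotation of the GRCm38 build, which matches the mm10 build of the submitters' processing notes, Cyp7b1 (ENSMUSG00000039519) lies on the minus strand of chromosome 3 from 18071950 to 18243338, with 6 exons. Ch25h (ENSMUSG00000050370) is a gene of 1 exon on chromosome 19 from 34473778 to 34475164. Gpr183 (ENSMUSG00000051212) lies on chromosome 14 from 121952551 to 121965195 and has coding transcripts of 2 and 3 exons.

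Over whole libraries, Cyp7b1 and Gpr183 were more abundant in TNF-Tg than in WT, and Ch25h was rare in both. In the order tdT1, tdT2, WT, TNF-Tg, Cyp7b1 had 47, 9, 79 and 586 UMIs, or 3.30, 3.82, 1.15 and 15.6 CPM. Ch25h had 32, 4, 9 and 14 UMIs in the same order, or 2.24, 1.70, 0.131 and 0.373 CPM. Gpr183 had 152, 162, 1766 and 2216 UMIs, or 10.7, 68.7, 25.7 and 59.0 CPM. The TNF-Tg library was thus the highest for Cyp7b1, the tdT1 library for Ch25h and the tdT2 library for Gpr183. The log2 ratio of TNF-Tg over WT was 3.76 for Cyp7b1, 1.51 (0.200 to 2.90) for Ch25h and 1.20 (1.11 to 1.29) for Gpr183. A bulk ratio mixes the number of cells of a class with the level per cell, so the genes are described by class from here on.

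**Figure D1:**
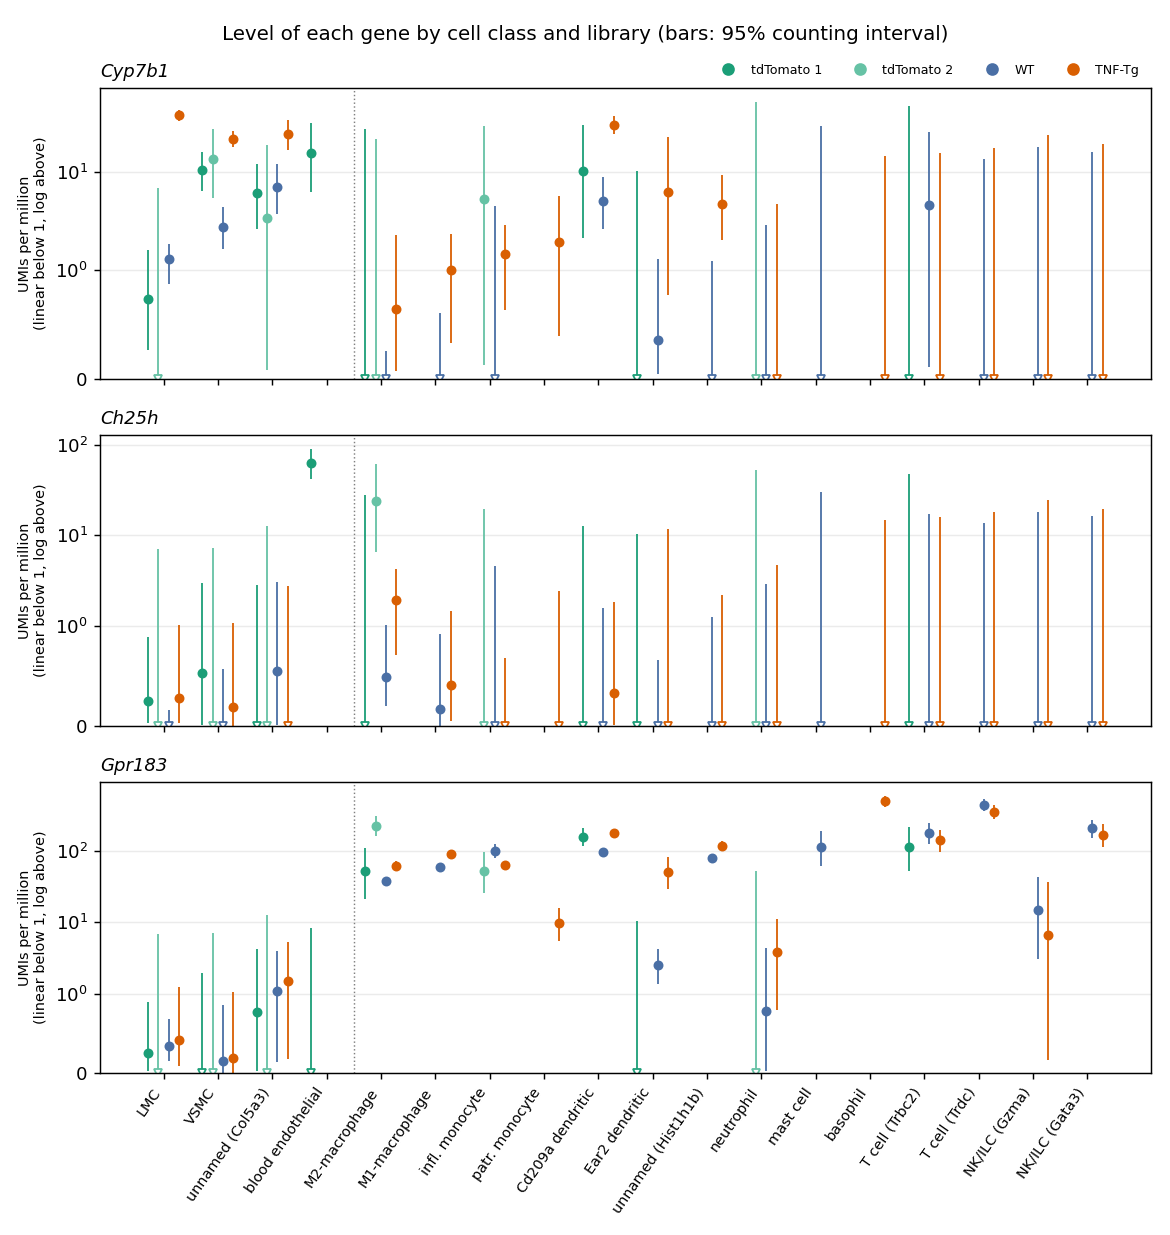
CPM of Cyp7b1, Ch25h and Gpr183 (vertical axes, linear below 1 and logarithmic above) in 18 cell classes (horizontal axis, libraries with at least 20 cells of the class, stromal classes left of the dotted line), with exact 95% counting intervals and open triangles for classes without a UMI. Cyp7b1 is highest in stromal and Cd209a dendritic-like cells of TNF-Tg, Ch25h in blood endothelial-like cells of tdT1, and Gpr183 in leukocytes.

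Cyp7b1, the ligand-making enzyme, was found in stromal cells, in Cd209a dendritic-like cells and in the blood endothelial-like cells of tdT1. In the LMC-like, VSMC-like, Col5a3 and Cd209a dendritic-like classes its level was higher in TNF-Tg than in WT. Of these the LMC-like cells, by which the gene had been chosen, had the largest ratio. The stromal differences rested on TNF-Tg cells that clustered apart when the libraries were merged without integration. Without those cells the counting interval of each stromal ratio included no difference from WT. The TNF-Tg cells then left were by choice those that grouped with other libraries. Macrophages, neutrophils, lymphocytes and mast cells had few or no Cyp7b1 UMIs in any library. In lymphocytes and mast cells the floors were 11.2 CPM and more, above the WT stromal levels, so levels like those cannot be seen there.

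In LMC-like cells, Cyp7b1 had 6 UMIs in 648 tdT1 cells, 0 in 93 tdT2 cells, 30 in 1393 WT cells and 272 in 514 TNF-Tg cells. The levels were 0.739 CPM (0.271 to 1.61), 0 CPM (up to 6.97), 1.29 CPM (0.870 to 1.84) and 38.02 CPM (33.6 to 42.8). The TNF-Tg value lay outside the intervals of the other 3 libraries, which overlapped each other. The log2 ratio of TNF-Tg over WT was 4.88 (4.33 to 5.48), or 29.5-fold (20.2 to 44.5). Of the 12929 genes with at least 10 UMIs over both libraries in this class, 4.91% were at least 2-fold higher and 8.11% at least 2-fold lower in TNF-Tg. Of the 3 genes Cyp7b1 was among the higher ones, and this comparison had selected it. The mean of the tdT replicates was 0.370 ± 0.523 CPM (SD, n = 2).

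Most LMC-like cells of TNF-Tg had no Cyp7b1 UMI. A UMI was seen in 67 of 514 cells (13.0%, 10.3 to 16.3%) in TNF-Tg and in 17 of 1393 cells (1.22%, 0.713 to 1.95%) in WT. In cells thinned to 3000 UMIs the shares were 4.10% and 0.359%. Of the TNF-Tg cells with Cyp7b1, 20 had 1 UMI, 47 had at least 2 and 20 had at least 5. The highest cell had 35 UMIs and the 5 highest together had 82, or 30.1% of the class, while no WT cell exceeded 4. As a background, neutrophil-like cells had 0 Cyp7b1 UMIs in 228 TNF-Tg cells, at a median depth of 3124 UMIs against 12422 in LMC-like cells.

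**Figure D2:**
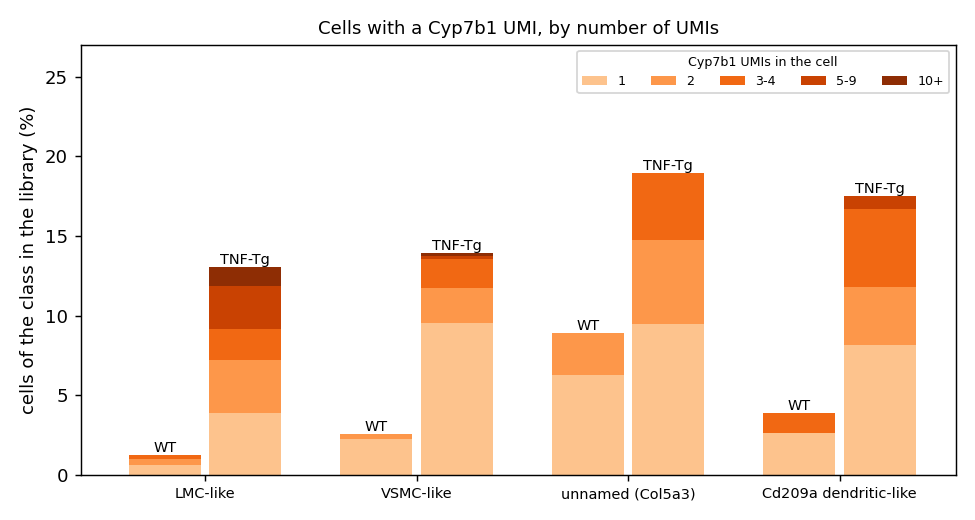
Share of cells (vertical axis, %) with a Cyp7b1 UMI in WT and TNF-Tg for 4 classes, with shades for the number of UMIs in the cell. Cells with 10 or more UMIs occur in TNF-Tg LMC-like and VSMC-like cells and in no WT class shown.

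In VSMC-like cells Cyp7b1 was also higher in TNF-Tg than in WT, and here the tdT replicates lay between the pair. Over 194, 104, 624 and 502 cells of tdT1, tdT2, WT and TNF-Tg it had 20, 7, 18 and 115 UMIs. The levels were 10.5 (6.44 to 16.3), 13.6 (5.45 to 27.9), 2.78 (1.65 to 4.40) and 21.9 (18.1 to 26.3) CPM. The interval of tdT2 overlapped that of TNF-Tg, and WT was below all others. TNF-Tg over WT gave a log2 ratio of 2.98 (2.25 to 3.78), or 7.87-fold. At least a 2-fold difference was reached by 4.89% of the 11890 genes tested in this class on the higher side and by 14.1% on the lower side. TNF-Tg was 1.82 times and WT 0.231 times the tdT mean of 12.1 ± 2.13 CPM (SD, n = 2). The sorts differed as well, since the tdT cells were taken by reporter and the other cells by scatter.

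The Col5a3 cluster held Cyp7b1 in all 4 libraries. In library order its levels were 6.15, 3.43, 7.09 and 24.5 CPM, from 8, 1, 13 and 33 UMIs. TNF-Tg was again the highest, with a log2 ratio over WT of 1.79 (0.823 to 2.84). In this cluster 6.16% of the genes tested were at least 2-fold higher in TNF-Tg.

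Within the LMC-like class, Cyp7b1 was uneven. At a finer resolution the class fell into a cluster led by Mrgprg, Postn and Osr2 and another led by Dkk2, Edn1 and Vldlr. In the Mrgprg cluster Cyp7b1 was at 1.70 CPM in 832 WT cells and 52.6 CPM in 340 TNF-Tg cells, of which 18.8% had a UMI. In the Dkk2 cluster it was at 0.221 CPM in 553 WT cells and 1.49 CPM in 172 TNF-Tg cells, from 2 and 3 UMIs. The Mrgprg cluster thus carried 269 of the 272 Cyp7b1 UMIs of the class in TNF-Tg. In VSMC-like cells the finer cluster led by Apod, Cxcl14 and Penk had the highest TNF-Tg level, at 29.7 CPM against 3.61 CPM in WT.

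The stromal difference in Cyp7b1 rested on cells that only the TNF-Tg library held. When the 4 libraries were merged and clustered without integration, 1 cluster of 638 cells contained 637 TNF-Tg cells and 1 cell of another library. It made up 18.8% of the TNF-Tg library, had a median depth of 14697 UMIs and 22 predicted doublets, and was led by Ccl19, Chl1, Timp1, Il33, Saa3 and Prg4. It carried 447 Cyp7b1 UMIs, or 76.3% of those of the library, in 158 cells (24.8%). The gene itself had not been used for the clustering. A cluster made almost wholly of 1 library may be that library and not a cell type, and library and condition cannot be told apart here. Clustering apart was not particular to stroma. In the same merge an M2-macrophage-like cluster held 134 TNF-Tg cells and 1 WT cell, and the M1-macrophage-like cluster held 9 TNF-Tg and 495 WT cells. The macrophage ratios below use the integrated classes, and their TNF-Tg cells were not split. The cluster was picked because its cells were almost all of TNF-Tg. TNF-Tg stromal cells outside it were therefore those that grouped with other libraries, and their closeness to WT follows in part from that choice.

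Split in this way, the LMC-like cells of TNF-Tg were either far above WT or not above it. The 241 cells that fell in the TNF-Tg-only cluster had 271 Cyp7b1 UMIs, or 63.6 CPM (56.2 to 71.6), and 27.4% of them had a UMI. The other 273 cells, which shared clusters with the remaining libraries, had 1 UMI, or 0.346 CPM (0.00876 to 1.93), below the WT level of 1.29 CPM. The log2 ratios over WT were 5.62 (5.08 to 6.22) and −1.90 (−7.25 to 0.691). Median depth was 16585 UMIs per cell in the former and 10597 in the latter, against 16230 in WT, a gap that moves with the split and whose part in it was not tested. With classes named in the merged data instead, the TNF-Tg-only cluster stayed unnamed. The LMC-like class then kept 271 TNF-Tg cells with 1 Cyp7b1 UMI, at a log2 ratio of −1.70 (−7.06 to 0.897). That interval included no difference from WT, so a reversed direction was not shown.

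**Figure D3:**
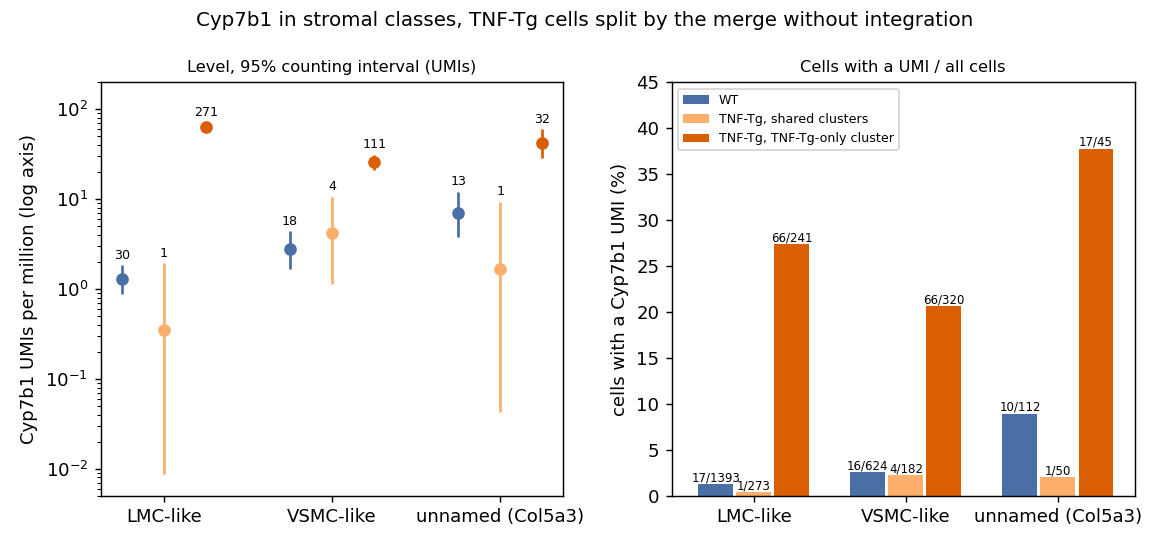
Left, Cyp7b1 CPM (log axis, exact 95% counting intervals, UMIs printed above) in WT and in the TNF-Tg cells that shared clusters with other libraries or fell in the TNF-Tg-only cluster of the merge without integration. Right, share of cells with a Cyp7b1 UMI (%), with cell numbers. Cells of the TNF-Tg-only cluster are above WT in all 3 classes, and the intervals of the other TNF-Tg cells overlap those of WT.

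The same split held for the other stromal classes. In VSMC-like cells, 320 cells of the TNF-Tg-only cluster had 25.8 CPM of Cyp7b1 (111 UMIs) and the other 182 had 4.18 CPM (4 UMIs), with log2 ratios over WT of 3.21 (2.49 to 4.02) and 0.588 (−1.43 to 2.19). In the Col5a3 cluster, 45 cells had 42.5 CPM (32 UMIs) and 50 cells 1.68 CPM (1 UMI), with log2 ratios of 2.58 (1.61 to 3.64) and −2.08 (−7.49 to 0.655). VSMC-like ratios by the merged classes were −0.526 (−2.23 to 0.825). Median depth in VSMC-like cells was 12534 UMIs in the TNF-Tg-only cluster and 4289 in the shared clusters, against 10560 in WT. The floor of the shared VSMC-like cells, 3.135 CPM, lay above the WT level of 2.78 CPM. In the TNF-Tg stromal cells of shared clusters a Cyp7b1 difference from WT was therefore not detectable at this depth. The intervals still allowed up to 4.56-fold above WT in VSMC-like cells and 1.61-fold in LMC-like cells.

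The cells of the TNF-Tg-only cluster also differed in class markers. The LMC markers summed to 15553 CPM in WT LMC-like cells, 15502 CPM in the TNF-Tg cells of shared clusters and 7772 CPM in those of the TNF-Tg-only cluster, with none of the 10 at 0. The VSMC markers in VSMC-like cells summed to 13999, 11901 and 7821 CPM in the same order. Markers of the synovial lining of joints were listed after the values had been seen. Their sum in LMC-like cells was 278 CPM in WT, 407 CPM in the shared TNF-Tg cells and 1274 CPM in the TNF-Tg-only cells. Without Prg4, which encodes the joint lubricant lubricin, it was 79.5, 40.8 and 16.2 CPM. Most of that remainder was Clic5, at 77.8, 33.6 and 11.5 CPM. Htra4 went the other way from WT, at 0.946, 6.58 and 3.99 CPM, and Tspan15, Col22a1 and Hbegf had few UMIs or none. At 0 were 1, 2 and 1 of the 6 genes. The part of a synovial population in the Cyp7b1 values was not tested.

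Among 13926 genes, those whose log CPM followed Cyp7b1 most closely over 53 sums of a class in a library were Tubb3 (Pearson's r = 0.723), Timp1 (0.720), Lefty1 (0.680), Prg4 (0.678) and Adgra2 (0.667). The sums share libraries and depth, so the values are a description. These genes were picked for following Cyp7b1, and Timp1 and Prg4 were also among the leading genes of the TNF-Tg-only cluster. Higher levels along the split therefore follow in part from that choice. Tubb3 in LMC-like cells was at 2.75 CPM in WT, 4.5 CPM in the shared TNF-Tg cells and 41.7 CPM in the TNF-Tg-only cells. Timp1, which encodes an inhibitor of matrix metalloproteinases, was at 20.7, 59.9 and 569 CPM. Lefty1 differed less along the split, at 13.6, 19.4 and 24.9 CPM.

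Outside the stroma, Cyp7b1 was also found in Cd209a dendritic-like cells, which were led by Klrd1, Cd7, Cd209a and Flt3, the last of these the receptor for a growth factor of dendritic cells. It had 3 UMIs in 22 tdT1 cells, 0 in 12 tdT2 cells, 12 in 154 WT cells and 93 in 246 TNF-Tg cells. The levels were 10.4 (2.14 to 30.3), 0 (up to 42.9), 5.15 (2.66 to 8.99) and 30.6 (24.7 to 37.4) CPM. TNF-Tg was 5.94-fold above WT (log2 2.57, 1.70 to 3.57), and the interval of tdT1 overlapped both. Of the 9983 genes tested in this class, 8.29% were at least 2-fold higher and 9.49% at least 2-fold lower. A UMI was seen in 43 TNF-Tg cells (17.5%, 13.0 to 22.8%) and 6 WT cells (3.90%), and the highest cell had 8 UMIs. Prrx1 was at 0.696 CPM in this class over all libraries, against 440 CPM in LMC-like cells. In blood endothelial-like cells, 7 of the 34 tdT1 cells (20.6%, 8.70 to 37.9%) had 1 Cyp7b1 UMI each, or 15.6 CPM (6.27 to 32.1). The other libraries had no Cyp7b1 UMI in their 7, 2 and 6 such cells, whose floors of 50.5 CPM and more lay above that level.

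Other named leukocyte classes had few Cyp7b1 UMIs or none. M2-macrophage-like cells had 0 UMIs in 1121 WT cells, which allows up to 0.211 CPM at the floor of 3 counts, and 2 UMIs in 261 TNF-Tg cells. M1-macrophage-like cells had 0 and 5 UMIs, and inflammatory monocyte-like cells 0 and 8. The TNF-Tg levels were 0.641, 1.01 and 1.47 CPM. In inflammatory monocyte-like cells the 73 WT cells allow up to 3.66 CPM, above the TNF-Tg level, so no direction can be read there. The unnamed cluster led by Hist1h1b had 0 UMIs in 143 WT cells, with a floor of 1.00 CPM. It had 8 UMIs in 88 TNF-Tg cells, or 4.74 CPM, and 6 of these came from 1 cell. An unnamed cluster led by Ccl19, which held 111 predicted doublets, had 1 UMI in 82 WT cells and 11 in 42 TNF-Tg cells, or 0.592 and 11.99 CPM. An unnamed cluster of very shallow cells led by Igkc had 113 CPM in TNF-Tg, but 16 of its 23 UMIs came from 1 cell.

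Ch25h, which makes the substrate of CYP7B1, was highest in endothelial cells in these data and nearly absent from the stromal classes with Cyp7b1. Blood endothelial-like cells of tdT1 held 28 of the 32 Ch25h UMIs of that library, at 62.4 CPM (41.5 to 90.2). Of these 34 cells, 13 had a UMI (38.2%) and the highest had 8. The other libraries had 7, 2 and 6 such cells, with 0, 0 and 1 Ch25h UMIs, too few for a comparison between conditions. None of the 8 blood endothelial markers was at 0 in tdT1. Ccl21a, a gene of the lymphatic endothelial marker list, was also among the leading genes of the cluster. The cells were thus endothelial by these markers, and a split of blood from lymphatic endothelium was not tested. The 5 genes most like Ch25h over the same 53 sums were Adgrl4 (r = 0.803), Mmrn2 (0.765), Cyyr1 (0.763), Tie1 (0.763) and Esam (0.763), and each peaked in that same class and library. Only tdT1 had at least 20 such cells, so endothelium entered as 1 of the 53 sums. Endothelial genes are bound to rank high and peak there, and the likeness adds no further evidence.

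In stromal cells Ch25h was at the limit of detection. In library order, LMC-like cells had 2, 0, 0 and 2 UMIs and VSMC-like cells 1, 0, 0 and 1. The CPM difference of TNF-Tg minus WT was 0.28 in LMC-like and 0.19 in VSMC-like cells, and a count of 0 in WT allows 0.129 and 0.464 CPM. The tdT mean in LMC-like cells was 0.123 ± 0.174 CPM (SD, n = 2). A difference between conditions was not detectable at this depth. In TNF-Tg, 1 LMC-like cell and 1 VSMC-like cell had both a Cyp7b1 and a Ch25h UMI.

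M2-macrophage-like cells, led by Cd209f, Ccl8 and Lyve1, held 7 of the 9 Ch25h UMIs of WT and 6 of the 14 of TNF-Tg. They had 0 UMIs in 47 tdT1 cells, 4 in 45 tdT2 cells, 7 in 1121 WT cells and 6 in 261 TNF-Tg cells. The levels were 0 (up to 27.9), 23.9 (6.53 to 61.3), 0.491 (0.198 to 1.01) and 1.92 (0.705 to 4.18) CPM, and the 4 UMIs of tdT2 came from 1 cell. The intervals of the tdT replicates overlapped each other, as did those of WT and TNF-Tg. TNF-Tg over WT gave a log2 ratio of 1.97 (0.119 to 3.76). M1-macrophage-like cells had 1 UMI in WT and 2 in TNF-Tg.

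The other enzymes of the pathway did not follow Cyp7b1 in stromal cells. Of the 11 enzymes listed, 6 had enough UMIs in LMC-like cells: 1 was at least 2-fold higher (Cyp7b1), 2 at least 2-fold lower and 3 in between, with a median log2 ratio of −0.406 against −0.0452 over all genes. Of all genes tested in the class, 4.91% were at least 2-fold higher and 8.11% at least 2-fold lower. Cyp27a1, which makes a hydroxycholesterol in mitochondria, went from 32.3 CPM in WT to 13.3 in TNF-Tg, a log2 ratio of −1.28 (−1.61 to −0.972). Hsd11b1, which also acts on ring-oxidised sterols, was at 72.9 and 33.0 CPM (−1.14). Hsd3b7, the ligand-degrading enzyme, was at 77.2 and 60.8 CPM, a log2 ratio of −0.344 (−0.498 to −0.192), within the 2-fold bound.

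The split of the TNF-Tg cells moved Cyp27a1 and Hsd3b7 the other way from Cyp7b1. In LMC-like cells Cyp27a1 was at 26.7 CPM in the shared clusters and 4.22 CPM in the TNF-Tg-only cluster, with log2 ratios over WT of −0.277 and −2.94. Hsd3b7 was at 81.0 and 47.1 CPM, with log2 ratios of 0.0697 and −0.711. Of the 3 groups, the TNF-Tg-only cells thus had the most Cyp7b1 and the least Hsd3b7. In VSMC-like cells Cyp27a1 was at 70.2 CPM in WT against 18.3 in TNF-Tg (−1.94), and Hsd3b7 at 68.6 and 37.7 (−0.865), where the median of all genes was −0.216. Of 5 enzymes tested there, 1 was at least 2-fold higher and 1 at least 2-fold lower, where 4.89% and 14.1% of all genes were.

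In macrophages Cyp27a1 was lower in TNF-Tg, and Cyp7b1 stayed at a few UMIs. Cyp27a1 went from 72.6 CPM in WT to 28.8 in TNF-Tg in M2-macrophage-like cells (−1.33) and from 61.1 to 10.5 CPM in M1-macrophage-like cells (−2.54). In Cd209a dendritic-like cells it was at 43.7 and 26.6 CPM (−0.717), and Hsd3b7 was at 18.0 and 21.7 CPM (0.268, −0.312 to 0.862). The dendritic-like class thus had more Cyp7b1 in TNF-Tg at a level of Hsd3b7 that did not differ beyond counting error.

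Gpr183, the receptor, was a leukocyte transcript. In library order it had 2, 0, 8 and 3 UMIs in LMC-like cells and 0, 0, 1 and 1 in VSMC-like cells, so these give its background in cells that should lack it. Shares of LMC-like cells with a UMI were 0.431% in WT and 0.389% in TNF-Tg, at median depths of 16230 and 12422 UMIs. Red blood cell-like cells had 0 UMIs in 54 WT and 46 TNF-Tg cells. Not all leukocyte classes had Gpr183 in number. Neutrophil-like cells had 1 UMI in 344 WT and 3 in 228 TNF-Tg cells, at median depths of 3516 and 3124 UMIs. Innate lymphoid-like cells with Gzma had 3 in 21 WT and 1 in 33 TNF-Tg cells, too few for a comparison.

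Among classes with at least 20 cells in the library, the highest WT level was in T cell-like cells with Trdc, a gene of the gamma-delta T cell receptor, at 443 CPM (367 to 530) in 31 cells. It lay above the next classes, the Gata3 innate lymphoid-like cells at 207 CPM and the Trbc2 T cell-like cells at 179 CPM, which overlapped each other. Mast cell-like, inflammatory monocyte-like and Cd209a dendritic-like cells followed at 112, 101 and 98.2 CPM with overlapping intervals. M1-macrophage-like cells at 59.6 CPM and M2-macrophage-like cells at 37.5 CPM were each apart from their neighbours. Under the same limit the order in TNF-Tg began with basophil-like cells at 502 CPM (418 to 598) in 62 cells and Trdc T cell-like cells at 357 CPM (280 to 448), which overlapped. Below the limit, 7 WT basophil-like cells were at 507 CPM, and an unnamed cluster led by Lgals7 was at 622 CPM in 2 WT cells and 634 CPM in 14 TNF-Tg cells. The 23 tdT1 cells of that cluster had no Gpr183 UMI. Its leading genes were mixed, with the keratin genes Krt14 and Krt5 beside Ccr7 and Fscn1 of migratory dendritic cells. In both conditions the Trdc, Trbc2, Gata3 and Cd209a classes were higher than both macrophage classes, and of these intervals only those of Trbc2 T cell-like and M1-macrophage-like cells in TNF-Tg overlapped.

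Gpr183 was higher in TNF-Tg than in WT in Cd209a dendritic-like cells, in both macrophage classes and in the Hist1h1b cluster, and lower in inflammatory monocyte-like cells. In basophil-like, mast cell-like, neutrophil-like and patrolling monocyte-like cells the intervals of the log2 ratio included 0, with few WT UMIs in each (16, 14, 1 and 0). In Cd209a dendritic-like cells the levels in library order were 159, 267, 98.2 and 181 CPM, from 46, 23, 229 and 552 UMIs. TNF-Tg was above WT, and both tdT libraries, which had 22 and 12 cells, were above WT as well. TNF-Tg was 1.85-fold above WT (log2 0.885, 0.660 to 1.11). A UMI was seen in 173 of 246 TNF-Tg cells (70.3%) and 83 of 154 WT cells (53.9%). In cells thinned to 3000 UMIs the log2 ratio was 0.590 (0.131 to 1.07).

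In M1-macrophage-like cells Gpr183 had 59.6 CPM in WT (361 UMIs, 498 cells) against 91.3 in TNF-Tg (452 UMIs, 332 cells), a log2 ratio of 0.616 (0.413 to 0.820). The tdT libraries had 16 and 11 such cells, at 53.2 and 176 CPM. Median depth was 12488 UMIs per cell in WT and 14708 in TNF-Tg. By the merged classes the log2 ratio was 1.26 (0.436 to 1.98), but that class kept only 9 TNF-Tg cells with 16 Gpr183 UMIs, beside 495 WT cells. Another merged cluster, of 30 WT and 323 TNF-Tg cells with Aif1 and Ccl2 among its leading genes, was named inflammatory monocyte-like. The border between the 2 classes in TNF-Tg thus depended on integration.

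In M2-macrophage-like cells the levels in library order were 52.9, 227, 37.5 and 62.4 CPM. The tdT replicates were 4.30-fold apart, at a mean of 140 ± 123 CPM (SD, n = 2), which is wider than the 1.66-fold between TNF-Tg and WT (log2 0.734, 0.490 to 0.973). The proliferating cluster led by Hist1h1b, in which 5 of the 8 markers of cross-presenting dendritic cells (cDC1) were leading genes, had 78.7 CPM in WT against 119 in TNF-Tg, a log2 ratio of 0.597 (0.318 to 0.875). Cells that could be called cDC1-like in an integration of WT and TNF-Tg alone had 91.6 CPM in 72 WT cells and 101 CPM in 47 TNF-Tg cells. Their intervals of 75.6 to 110 and 79.7 to 125 CPM overlapped. At resolution 1.0 of the integration of all libraries, cDC1-like cells had 99.8 CPM in 74 WT cells and 93.9 CPM in 52 TNF-Tg cells, so no direction was shown for them.

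Inflammatory monocyte-like cells, with Ly6c2 and Chil3, had less Gpr183 in TNF-Tg. They were at 71.6 CPM in 14 tdT1 cells, 53.0 in 24 tdT2 cells, 101 (80.7 to 126) in 73 WT cells and 63.4 (56.9 to 70.5) in 495 TNF-Tg cells. The WT value was the highest, and both tdT intervals overlapped both conditions. TNF-Tg over WT gave −0.677 (−1.03 to −0.313) on the log2 scale. At resolution 1.0 a second cluster, led by Sirpb1c and Thbs1, took the same name, and the class held 150 WT cells. There the log2 ratio was −0.234 (−0.499 to 0.0382). In the integration of WT and TNF-Tg alone it was −0.716 (−1.07 to −0.342), and by the merged classes −0.47 (−0.8 to −0.124). The merged class held 71 WT and 831 TNF-Tg cells. It took in a second cluster of 30 and 323 cells, with the M1-macrophage marker Aif1 among its leading genes. The size of the difference thus moved with the cells the class held.

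**Figure D4:**
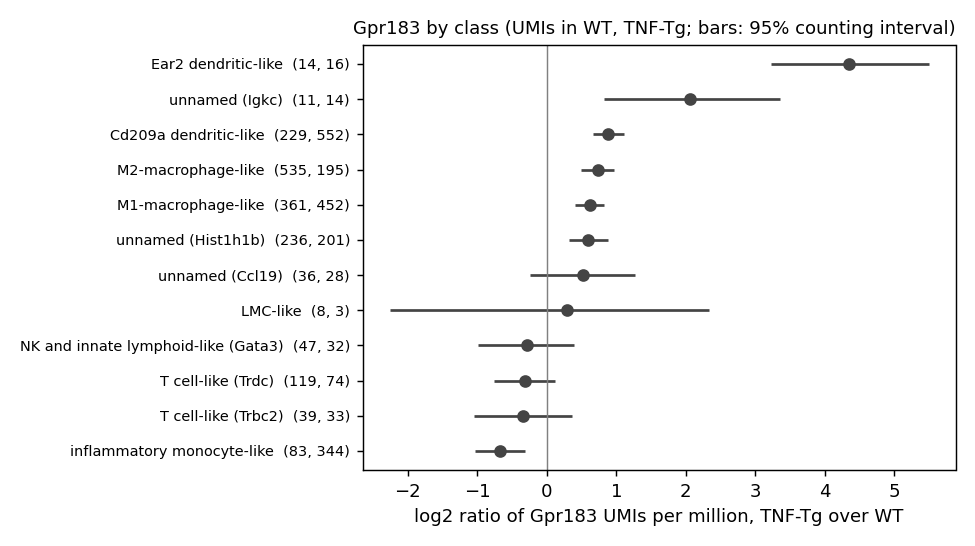
Log2 ratio of Gpr183 CPM in TNF-Tg over WT (horizontal axis) by class, with exact 95% counting intervals and the UMIs of WT and TNF-Tg in brackets. Cd209a dendritic-like and both macrophage classes lie right of 0, the Ear2 dendritic-like value rests mainly on 1 cell, inflammatory monocyte-like cells lie left of it, and the intervals of lymphoid classes include it.

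In lymphoid classes the conditions did not differ beyond counting error. The log2 ratio of TNF-Tg over WT was −0.313 (−0.752 to 0.118) in Trdc T cell-like cells, −0.338 (−1.05 to 0.369) in Trbc2 T cell-like cells and −0.291 (−0.987 to 0.387) in Gata3 innate lymphoid-like cells. B cell-like cells numbered 18, 8, 2 and 5, with 22, 1, 0 and 12 Gpr183 UMIs. B cells, which the receptor positions in lymphoid follicles, were thus too few for a comparison.

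Single cells carried some values. Ear2 dendritic-like cells had 14 Gpr183 UMIs in 302 WT cells and 16 in 22 TNF-Tg cells, or 2.50 and 50.8 CPM, a log2 ratio of 4.34 (3.22 to 5.49) where 5.64% of the genes tested were at least 2-fold higher. Of the TNF-Tg UMIs, 15 came from 1 cell, and without the highest cell of each library the ratio was 1.10 (−4.35 to 3.96). In the integration of WT and TNF-Tg alone, 14 migratory dendritic-like cells of TNF-Tg, which carry Ccr7 and Fscn1, had 116 Gpr183 UMIs, or 632 CPM (522 to 758). WT had 2 such cells with 11 UMIs. Of the 11 Cyp7b1 UMIs in the TNF-Tg cells, 10 came from 1 cell. The 14 TNF-Tg cells of the Lgals7 cluster had the same Cyp7b1 counts. The 2 WT cells had 17671 UMIs in all under either grouping. The migratory dendritic-like cells and the WT and TNF-Tg cells of the Lgals7 cluster thus appear to be largely the same cells.

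The cells that supplied the Gpr183 of a library also differed. M2-macrophage-like cells held 30.3% of the Gpr183 UMIs of WT and 8.80% of those of TNF-Tg. Cd209a dendritic-like cells held 13.0% and 24.9%, and inflammatory monocyte-like cells 4.70% and 15.5%. These shares move with cell numbers, which were 1121 and 261, 154 and 246, and 73 and 495. The 5 genes most like Gpr183 over the 53 sums were Gna15 (r = 0.866), Otulinl (0.852), Cd48 (0.848), Ms4a6b (0.831) and Il2rg (0.827).

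Of classes with at least 20 cells, Cd209a dendritic-like cells had the most cells with both the ligand-making enzyme and the receptor in WT and TNF-Tg. In TNF-Tg, 43 of 246 cells had a Cyp7b1 UMI, 173 a Gpr183 UMI and 34 both, against 30.2 cells from the product of the shares. In WT the numbers were 6, 83 and 5 of 154 cells, against 3.23. Co-detection was near the product of the shares in TNF-Tg, and deeper cells are more likely to show both genes. Other classes of TNF-Tg held both as well. The Hist1h1b cluster had 4.74 CPM of Cyp7b1 and 119 CPM of Gpr183, and its 3 cells with Cyp7b1 all had Gpr183. The 14 cells of the Lgals7 cluster had 68.4 and 634 CPM, with 10 of their 11 Cyp7b1 UMIs in 1 cell. M1-macrophage-like and inflammatory monocyte-like cells each had 2 cells with both.

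Genes that oxysterols regulate were then read from lists. In LMC-like cells 17 of the 18 cholesterol synthesis and transport genes tested were at least 2-fold higher in TNF-Tg and none was lower, with a median log2 ratio of 2.05. Of all genes tested in this class, 4.91% were at least 2-fold higher. Sqle, the squalene epoxidase, went from 5.42 CPM in WT to 42.5 in TNF-Tg (2.97) and Idi1, an isomerase of the same pathway, from 9.42 to 70.6 (2.91). Sc5d, at 22.4 and 37.3 CPM (0.734), was the gene within the bound. Insig1, which retains the SREBP2 complex when sterols are plentiful, was at 20.9 and 53.4 CPM (1.35). In VSMC-like cells 13 of 18 were at least 2-fold higher, with a median of 1.76, where 4.89% of all genes were. The Col5a3 cluster had 17 of 19 higher, the Hist1h1b cluster 10 of 18 and Cd209a dendritic-like cells 6 of 17. The shares of all genes there were 6.16%, 4.65% and 8.29%. Both macrophage classes had 3 of 18 higher, where 6.3% (M2) and 7.44% (M1) of all genes were. Ear2 dendritic-like cells had 3 of 18 higher and 5 lower, where 5.64% and 20.2% of all genes were.

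These genes followed the split of the TNF-Tg cells, but not as sharply as Cyp7b1. In the TNF-Tg-only LMC-like cells all 18 were at least 2-fold above WT with a median log2 ratio of 2.51, where 7.63% of all genes were. In the TNF-Tg cells of shared clusters 9 of 18 were, with a median of 0.985, where 3.68% of all genes were. Sqle was at 63.3 and 11.8 CPM in the pair, both above WT. In VSMC-like cells 13 of 18 in the TNF-Tg-only cells and 2 of 18 in the others were at least 2-fold higher, where 5.73% and 4.32% of all genes were. The shared LMC-like cells, in which no Cyp7b1 difference from WT was detectable, had higher levels of part of the cholesterol genes. A link between Cyp7b1 and these genes was not tested.

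**Figure D5:**
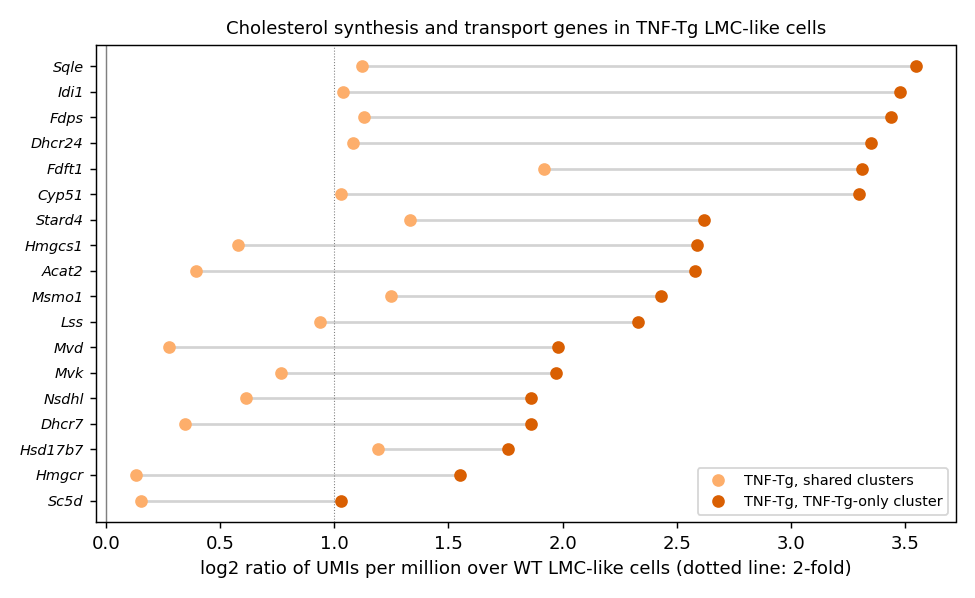
Log2 ratio of CPM over WT LMC-like cells (horizontal axis, dotted line at 2-fold) for 18 cholesterol synthesis and transport genes in TNF-Tg LMC-like cells of shared clusters and of the TNF-Tg-only cluster. Every gene is further right in the TNF-Tg-only cells, where all 18 pass 2-fold, than in the others, where 9 do.

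Most LXR target genes were within 2-fold or lower. In LMC-like cells none of 12 was at least 2-fold higher and 3 were at least 2-fold lower: Abca1, the cholesterol exporter, at 210 CPM in WT against 102 in TNF-Tg (−1.04), Lpl (−1.04) and Smpdl3a (−1.51). Of all genes tested in the class, 4.91% were at least 2-fold higher and 8.11% at least 2-fold lower. In the TNF-Tg-only cells 5 of 12 were at least 2-fold below WT and in the shared TNF-Tg cells none, where 15.5% and 7.45% of all genes were, and Abca1 had 64.3 and 157 CPM in them. In Cd209a dendritic-like cells 5 of 11 were at least 2-fold lower and 2 higher, where 9.49% and 8.29% of all genes were. Apoe went from 382 CPM in WT to 17.7 in TNF-Tg (−4.43), Pltp at 381 and 49.6 (−2.94) and Abca1 at 30.9 and 2.96 (−3.38), whereas Smpdl3a was at 31.7 and 84.1 (1.41). The higher genes were Smpdl3a and the receptor gene Nr1h3, the latter with 1 and 10 UMIs. Lower LXR targets were not particular to this class. The Hist1h1b cluster had 6 of 10 at least 2-fold lower and M1-macrophage-like cells 5 of 11, where 16.6% and 17% of all genes were. Inflammatory monocyte-like cells had 3 of 11 lower and 2 higher, where 7.79% and 9.49% of all genes were.

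Response genes of inflammation gave a frame for these values. Of 9 NF-kB response genes, 3 were at least 2-fold higher in TNF-Tg LMC-like cells, namely Ccl2 (25.5 and 155 CPM, 2.61), Icam1 (1.36) and Vcam1 (1.17). Of all genes tested in the class, 4.91% were at least 2-fold higher. None of the 9 was in the shared TNF-Tg cells and 5 were in the TNF-Tg-only cells, where 3.68% and 7.63% of all genes were. With 9 genes, the count in the shared cells was near the share of all genes. Ccl2, a chemokine for monocytes, was at 12.8 CPM in the former and 251 CPM in the latter. Of 7 interferon-stimulated genes tested, 0 were at least 2-fold higher and 1, Rsad2, was lower (−1.55). In the class as a whole these counts were near the shares of all genes, 4.91% higher and 8.11% lower. In the TNF-Tg-only LMC-like cells 3 of 7 were lower and in the shared cells 0, where 15.5% and 7.45% of all genes were. In VSMC-like cells 4 of 7 were higher in the shared and 0 of 6 in the TNF-Tg-only cells, against 4.32% and 5.73%. Lower were 6 of 8 in M1-macrophage-like, 4 of 8 in M2-macrophage-like and 4 of 7 in inflammatory monocyte-like cells, against 17%, 7.67% and 7.79%. Of the 3 groups of LMC-like cells, the TNF-Tg-only cells thus had the most Cyp7b1, Sqle and Ccl2 and the least Abca1, Lpl and Smpdl3a. These genes were picked from the lists, and the split was picked for a cluster almost all of TNF-Tg. For the list genes as for Cyp7b1, a larger distance from WT in those cells follows in part from that choice.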

How the data were processed

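Lymphatic and venous vessel cells were sorted and sequenced by the 10x Genomics droplet method. The deposited files hold raw UMI counts per gene and cell, made by the authors with Cell Ranger, version 3.1.0 for tdT1 and 6.0.1 for the other libraries per the file headers, on build mm10 per the submitters' processing notes. The annotation used is not given in the sources used here. No cell was removed for the main values. Counts of the 30406 genes listed in all libraries were integrated and clustered with Seurat 5.3.0 (30 dimensions, resolution 0.5), leaving out 69 list genes. A cluster took the name of the type with most of its markers among its leading 50 genes, with at least 3. That type also had to lead among the top 10 genes, or tie there and lead by at least 3 markers among the 50. Clusters with more than 50% predicted doublets, and very shallow ones without such a marker in the top 10, stayed unnamed. The rule was set after the clusters had been seen. Doublets were predicted with Scrublet in scanpy 1.11.5 and kept, then removed as an alternative. Counts were summed by class and library. Ratios of CPM carry exact conditional binomial intervals, shares carry Clopper-Pearson intervals, and a count of 0 has a floor of 3 counts. Genes with at least 10 UMIs over both libraries were compared at a bound of 2-fold, and TMM factors came from edgeR 4.0.16. The ratio step was tested on simulated data.

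The text names the 3 members, the genes of 6 lists, and the 5 genes most correlated with each member among genes reaching 10 CPM, on log2(CPM + 1). Other named genes, the synovial markers and the split by the TNF-Tg-only cluster were chosen after values had been seen. From the cholesterol list 1 gene is not reported here. The members and lists were chosen with earlier results of these data known. UMIs of 1 library per condition allow no test, and the depth is given by the UMIs of each class.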

Additional observations from a re-analysis of the deposited data

Results flagged for a closer look

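Gpr183 in inflammatory monocyte-like cells differed in direction from other classes. Its log2 ratio of TNF-Tg over WT was −0.677, while the 6 classes whose intervals lay above 0 had ratios of 0.597 to 4.34. The highest was that of Ear2 dendritic-like cells, which was 1.10 (−4.35 to 3.96) without the highest cell of each library. At resolution 1.0, where the class took in a second cluster, the monocyte ratio was −0.234 (−0.499 to 0.0382). In the integration of WT and TNF-Tg alone it was −0.716 (−1.07 to −0.342), and by the merged classes −0.47 (−0.8 to −0.124). In the merge the M1-macrophage-like class kept 9 TNF-Tg cells, and the monocyte class held 831, so a contrast of these classes could hardly be read there. With 1 library per condition the difference between the classes was not tested.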

How the results depend on the processing

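Of 79 alternative values, 4 reversed in sign and 11 moved further than the bound set for them, and 64 stayed within it. The counting intervals of the 4 reversed ratios all included no difference. The bound was the counting interval for ratios, the SD for means of the tdTomato replicates, and a factor of 1.5 for counts of genes. For differences of Ch25h it was the counting interval of the TNF-Tg level alone. A change of sign was counted as reversed for ratios only. With classes from a merge without integration, the log2 ratio of Cyp7b1 was −1.70 in LMC-like and −0.526 in VSMC-like cells in place of 4.88 and 2.98, the CPM difference of Ch25h in LMC-like cells was −0.042 in place of 0.28, and Gpr183 in M1-macrophage-like cells was 1.26 in place of 0.616. With the TNF-Tg-only stromal cells left out, an alternative chosen after seeing the data, Cyp7b1 was −1.90 in LMC-like cells, 0.588 in VSMC-like cells and −2.08 in the Col5a3 cluster, where it had been 1.79. Fewer cells by construction entered that value, the TNF-Tg cells left were those that grouped with other libraries, and other causes were not tested. In cells thinned to 3000 UMIs, Cyp7b1 in LMC-like cells was 4.25, the Ch25h difference was 0 in LMC-like and in VSMC-like cells, and Gpr183 was 0.912 in M1-macrophage-like and 0.590 in Cd209a dendritic-like cells. At resolution 1.0 Gpr183 in inflammatory monocyte-like cells was −0.234. Without the cell of most UMIs, added after seeing the data, Gpr183 in Ear2 dendritic-like cells was 1.10. With at least 30 UMIs in place of 10, 630 genes of LMC-like cells in place of 1048 were at least 2-fold lower. Leaving out a tdTomato replicate gave 0 to 0.739 CPM for Cyp7b1 and 0 to 0.246 CPM for Ch25h. TMM factors raised the median ratio of all genes by 0.178 in VSMC-like cells and 0.155 in M1-macrophage-like cells. No paired analysis was possible because the compared conditions had 1 library each. Counts of Ch25h limit what can be said of it.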
